A study of Mus musculus with 6 samples.

Results

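RNA of lung fibroblasts given an adenovirus with Cre recombinase (Ad-Cre) was compared with RNA of lung fibroblasts given a virus with green fluorescent protein (Ad-GFP), over the genes that had at least 20 reads in one of the 2 lung libraries. These were 13880 of the 57180 gene identifiers counted, 35114 of which had a read in some library of the series. The rule stops within the range of thinly read genes: 998 genes with 20 to 29 reads in their better covered library are inside it, and 2221 genes with 10 to 19 reads are outside. The series holds 6 libraries of mouse fibroblasts, 1 for each virus in cells of lung, cardiac and tail tip origin. Ad-GFP is the control, and the submitters describe Ad-Cre as the GATA4 knockout. All cells were kept in DMEM with fetal bovine serum and harvested 48 h after the virus was added, and polyadenylated RNA was read. The labels give the genotype of both lung groups as wild type, and give neither the strain, age or number of the mice nor the part of Gata4 that Cre was to remove.

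Fibroblasts build and remodel the connective tissue of the lung. They secrete collagens and proteoglycans, cut them with metalloproteinases, hold on to them through integrins, and release cytokines and growth factors that act on epithelium and immune cells. GATA4 is a zinc finger transcription factor known for its part in heart and gut development, and its cofactors of the FOG family bind its zinc finger. Cre recombinase excises DNA flanked by its recognition sites, and can delete a gene only in cells engineered to carry them there.

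The lung Ad-GFP library held 29535869 counted reads and the library labelled Ad-Cre 26170316. A gene at 0 reads could hold up to 3, which is 0.102 CPM (reads of a gene scaled to the library total) for the control and 0.115 CPM for the other library. Gata4 (ENSMUSG00000021944) had 428 reads in the control against 492 in the library labelled Ad-Cre, so its RNA was not lower where it was to be deleted (ratio of CPM 1.30, 95% interval 1.14 to 1.48). A count over the whole gene does not show whether a part of it is missing. Every direction below therefore rests on the labels. Most fibroblast markers were well read, 12 of 14 with at least 200 reads. Among them were Vim (84044 and 82332 reads, control first here and throughout), Fn1 (106034 and 91978) and Pdgfra (4015 and 3742). Fap had 57 and 29 reads and S100a4 187 and 183. Of the 14 markers 3 were 1.5-fold lower (Lum, Dcn and Fap, against 6.23% of all genes) and none was higher, with a median log2 ratio of -0.03. Of lung mesenchyme genes, Tbx5 had 234 and 259 reads and Foxf1 567 and 450, while Tcf21 had no read in either library. Nkx2-1, the lung epithelial regulator, also had none, Epcam had 3 and 0 reads, the leukocyte gene Ptprc 6 and 9, and the endothelial gene Pecam1 5 and 13.

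Each group is 1 library, so no difference has a replicate check and no p-value is given. Ratios are of CPM on library totals, their exact conditional binomial 95% intervals cover counting error only (reads carry no molecular identifiers), and log2 ratios add a prior count of 2 reads. Across all 13880 genes the median log2 ratio was 0.00 with an SD of 0.41. In the library labelled Ad-Cre 211 genes were at least 2-fold higher (1.52%) and 244 at least 2-fold lower (1.76%). The whole interval lay past 2-fold for 41 genes above and 19 below. Such calls were uneven over depth. Where a gene had at least 1000 reads (5539 genes, which carry 91.8% of the reads), the SD was 0.22, and 4 genes were 2-fold higher and 6 lower. The 3921 genes with 200 to under 1000 reads had an SD of 0.30, with 16 higher and 14 lower, and the 4420 genes with 20 to under 200 reads had an SD of 0.62, with 191 and 224. The bulk of 2-fold differences thus stood in thinly read genes. At the milder line of 1.5-fold, 695 genes were higher (5.01%) and 865 lower (6.23%). Of the 9460 genes with at least 200 reads, 109 were 1.5-fold higher (1.15%) and 168 were 1.5-fold lower (1.78%).

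**Figure D1:**
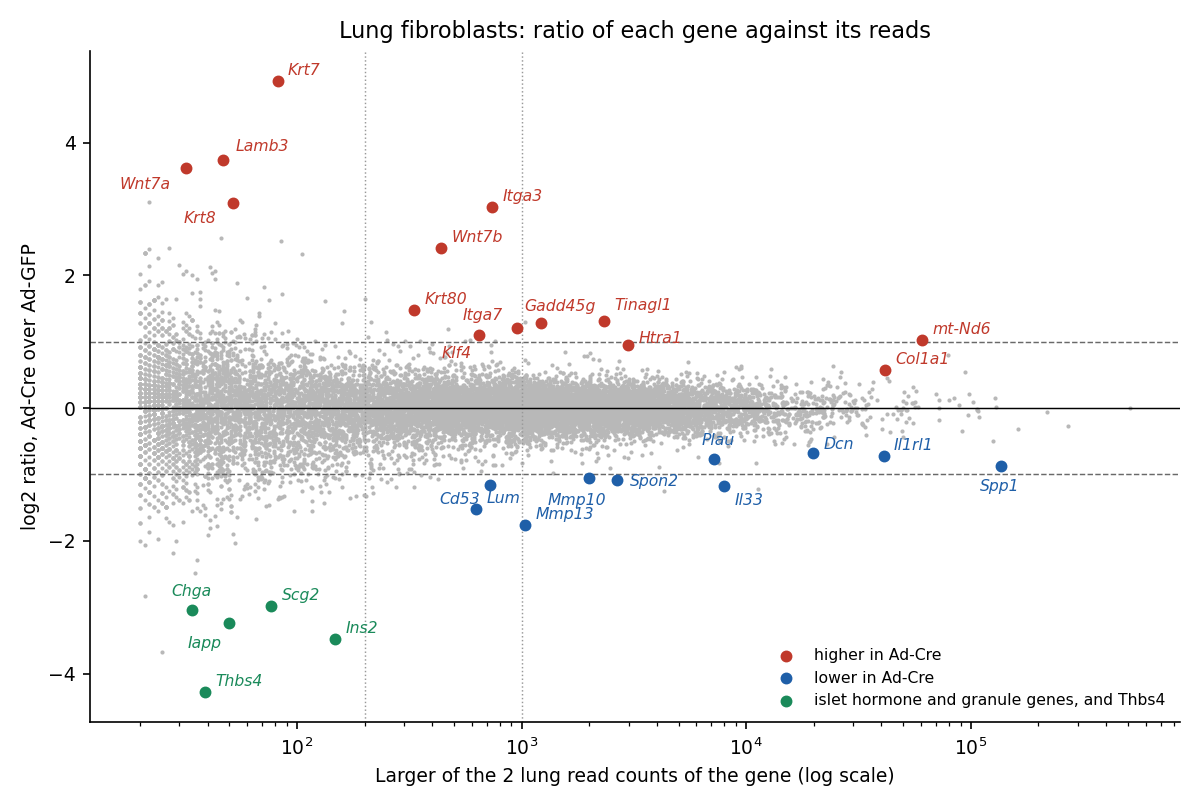
Log2 ratio of CPM (library labelled Ad-Cre over Ad-GFP, vertical) against the larger of the 2 read counts of a gene (log scale, horizontal), 1 point per gene. Dashed lines mark 2-fold and dotted lines 200 and 1000 reads; the cloud narrows to the right, Itga3 and Wnt7b stand alone above it between 200 and 1000 reads, and Mmp13 and Il33 stand lowest among the deeply read genes that are named in it.

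Among genes with at least 1000 reads the lowest log2 ratio was that of Mmp13, an interstitial collagenase. It had 1033 reads in the control against 268 in the library labelled Ad-Cre, and the control was 3.42-fold higher (2.98 to 3.92). The stromelysin genes Mmp10 (2001 and 855 reads) and Mmp3 (1382 and 618) were 2.07-fold (1.91 to 2.25) and 1.98-fold (1.80 to 2.18) higher in the control. Plau, the urokinase that activates plasminogen, had 7170 and 3712 reads. These 4 were the 1.5-fold lower members of 24 protease and inhibitor genes, where 6.23% of all genes passed that line. All 4 had at least 1000 reads, a depth where 0.885% of genes passed it. One member was 1.5-fold higher, the median log2 ratio was -0.08, and Mmp2 (1482 and 1241) and Mmp14 (6706 and 5546) lay close to it. The higher gene was Mmp9, a gelatinase (297 and 468 reads, log2 ratio 0.83). Serpinb2, an inhibitor of urokinase, had 1851 and 924 reads, while the metalloproteinase inhibitor Timp1 had 15113 and 9902 (log2 ratio -0.44). The 15 lowest log2 ratios at this depth also held genes of other kinds: the ribosomal protein gene Rps29 (4082 and 1962), Atp5k of the ATP synthase (1005 and 501) and Mmd (7596 and 3806).

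Mmp13, Mmp3 and Mmp10 lie in 1 gene cluster on mouse chromosome 9, with 2 coding genes between Mmp13 and Mmp3 and 1 between Mmp3 and Mmp10 in the RefSeq order. Their promoters are shown because the 3 genes differed the same way. The letters are the 250 bases before each gene's start on the plus strand of GRCm38.p6 from RefSeq (chr9:7272264-7272513 for Mmp13, chr9:7445572-7445821 for Mmp3, chr9:7502092-7502341 for Mmp10), with the match to the AP-1 motif TGANTCA in capitals. The same motif begins 35, 46 and 63 bases before the start of Mmp13, Mmp3 and Mmp10.
Mmp13: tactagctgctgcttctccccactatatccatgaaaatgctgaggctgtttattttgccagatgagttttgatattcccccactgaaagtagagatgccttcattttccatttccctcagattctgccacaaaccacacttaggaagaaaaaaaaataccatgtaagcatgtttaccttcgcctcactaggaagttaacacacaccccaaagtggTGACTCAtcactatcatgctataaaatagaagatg
Mmp3: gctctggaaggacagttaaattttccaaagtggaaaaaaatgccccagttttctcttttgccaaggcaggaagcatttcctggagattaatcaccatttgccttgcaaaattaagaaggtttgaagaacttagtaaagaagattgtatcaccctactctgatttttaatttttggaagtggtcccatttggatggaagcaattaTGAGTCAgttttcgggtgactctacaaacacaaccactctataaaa
Mmp10: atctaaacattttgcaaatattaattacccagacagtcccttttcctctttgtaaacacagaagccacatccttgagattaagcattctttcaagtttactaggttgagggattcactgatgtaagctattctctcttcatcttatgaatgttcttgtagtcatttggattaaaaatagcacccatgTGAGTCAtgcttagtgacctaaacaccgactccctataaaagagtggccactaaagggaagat
Each of the 3 also holds TATAAA, which begins 16, 7 and 29 bases before the start. Searched on both strands, TGANTCA occurred in 4.43% of the 9724 promoters of this length that could be matched, and in 3.91% of the 7437 belonging to genes with at least 200 reads. It stood in 9 of 86 matched promoters of the 1.5-fold lower genes at that depth (10.5%) and in 7 of 72 of the higher ones (9.72%), so the 2 shares were close. The 3 genes shown above are among those 9, and among the lower genes with TATAAA, so neither share is independent of them. Some other searched letters were also more frequent in the lower genes than in all genes of that depth: AGATAA or TGATAA of GATA factors (16.3%, against 595 of 7437), TATAAA (12.8% against 5.58%), GGAATG of TEAD factors (15.1% against 10.0%) and CCAAT of NFY (48.8% against 37.2%). In the higher genes these shares were 9.72%, 8.33%, 11.1% and 43.1%. The remaining searched letters were less frequent in the lower genes: TGACGTCA, called CRE (0% against 3.03%), TTTCCCGC of E2F factors (1.16% against 2.14%) and the CArG box (0% against 1.18%). In the higher genes those shares were 1.39%, 2.78% and 2.78%. A match is a description of the letters and says nothing about binding. AP-1 is formed by Fos and Jun proteins, whose genes are given below.

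Among cytokine genes the alarmin Il33 and its receptor were lower together. Il33 had 7984 and 3126 reads (2.26-fold higher in the control, 2.17 to 2.36), and Il1rl1, which encodes the receptor ST2 and its soluble form, 40875 and 21842 (1.66-fold, 1.63 to 1.69). Il33 was a lung gene in this series, with 16 to 34 reads in each of the other 4 libraries. Il6, a cytokine of the acute phase, had 330 and 162 reads, and Csf2 34 and 14. Ptgs2, the inducible cyclooxygenase, had 49756 and 32674 reads (log2 ratio -0.43). Csf1, the macrophage growth factor, had 34908 and 42310, and the interferon-induced chemokine Cxcl10 432 and 588 (0.62). Of 20 chemokine and cytokine genes, 4 were 1.5-fold lower and 1 higher (6.23% and 5.01% of all genes were), with a median of -0.23. At 200 reads or more the list held 17 genes, with 3 lower and 1 higher. At that depth 1.78% of all genes were 1.5-fold lower and 1.15% higher. Of growth factors that act on epithelium, Hgf had 2180 and 1144 reads (1.69-fold higher in the control, 1.57 to 1.82) and Fgf7 8310 and 4967, while Nrg1 had 303 and 457. Over the 25 genes of the FGF, EGF and PDGF ligands and receptors the median was -0.03.

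Of 23 measured proteoglycan and matricellular genes 5 were 1.5-fold lower (6.23% of all genes were) and none was 1.5-fold higher, with a median of 0.00. All 5 had at least 200 reads, a depth where 1.78% of genes were 1.5-fold lower. The 18 genes of the list at that depth had a median of -0.21. Lum (lumican, 626 and 192 reads, 2.89-fold higher in the control, 2.45 to 3.41) and Dcn (decorin, 19933 and 10991, 1.61-fold, 1.57 to 1.64), which coat collagen fibrils, were lower in the library labelled Ad-Cre. Spp1, the gene of osteopontin and the most read of the 1.5-fold lower genes, had 136252 and 66178 reads (1.82-fold, 1.81 to 1.84). Spon2 (2666 and 1115 reads), Thbs2 (3773 and 2081) and Vcan (versican, 22946 and 13992) lay on the same side, as did Has2, the hyaluronan synthase. Bgn (biglycan, 67908 and 69644) and Sparc (28171 and 28824) hardly differed. Mgp, whose product keeps soft tissue from calcifying, had 2146 and 1087 reads, Npnt, a ligand of integrin alpha8 beta1, 2473 and 1176, and the repulsive guidance ligand Sema3a 11111 and 5571. The proliferin genes Prl2c2 (11332 and 4327) and Prl2c3 (4320 and 1607) were lower too. They are near-identical copies, so how reads were split between them is uncertain.

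Of 28 measured collagens 22 had a log2 ratio above 0, 4 were 1.5-fold higher (5.01% of all genes were) and none was 1.5-fold lower, with a median of 0.24. Of the 4, only Col7a1 had at least 200 reads, 1 of 18 collagens at that depth. Col11a2, Col20a1 and Col23a1 had fewer, and 13.3% of all genes under 200 reads were 1.5-fold higher. Col7a1, the anchoring fibril collagen, had 1506 and 2207 reads (ratio 1.65, 1.55 to 1.77), and Col1a1, the main fibrillar collagen, 31533 and 41560 (1.49, 1.47 to 1.51). Its partner Col1a2 had 48011 and 50195 reads (log2 ratio 0.24), and Col3a1 12420 and 9496 (-0.21). The type IV collagens of basement membranes, Col4a1 (18374 and 22022) and Col4a2 (12033 and 14817), were at 0.44 and 0.47. Many collagen transcripts are rich in GC (61.6% in Col7a1), and GC content moved with the ratios in this pair, as given below. After each ratio was centred on genes of like length and GC the collagen median was 0.13 and Col1a1 stood at 0.33. In the cardiac pair Col1a1 had 281170 and 184887 reads and the collagen median was -0.43.

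Among genes with at least 1000 reads the highest log2 ratios were those of Tinagl1, Pabpn1, Gadd45g, mt-Nd6 and Gadd45b, in that order. Tinagl1, a secreted matrix protein, had 1054 and 2327 reads (ratio 2.49, 2.32 to 2.68), and Pabpn1, a nuclear poly(A) binding protein, 476 and 1039. Gadd45g had 571 and 1226 (2.42, 2.19 to 2.68) and Gadd45b 1691 and 2938 (1.96, 1.85 to 2.08). Both Gadd45 genes belong to a family of stress sensors that signal to MAP kinases. Htra1, a secreted serine protease, had 1742 and 2973 reads, Ddit3, the stress factor CHOP, 1237 and 1893, Pdk4, which restrains glucose oxidation, 1292 and 1962, and the histone demethylase gene Kdm6b 1410 and 2090. Lists around Ddit3 were near 0: the 27 ATF4 targets had a median of 0.06 and the 23 unfolded protein genes -0.10, with 1 and 0 members past 1.5-fold. The 15 highest at this depth also held Snrpf of the spliceosome (980 and 1553), Thoc7 of RNA export (1290 and 2022), the nucleolar gene Lyar (3833 and 5482) and Ccdc34 (1883 and 2728). The 36 splicing factors had a median of -0.07 and none past 1.5-fold. Pabpn1 shares exons with a readthrough transcript, and Snrpf, Thoc7, Ddit3 and Kdm6b overlap genes on the other strand, so their counts are uncertain.

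Immediate early genes, which cells switch on within minutes of a stimulus, were on the higher side. Of 25 measured members 19 had a log2 ratio above 0, 2 were 2-fold and 6 were 1.5-fold higher (1.52% and 5.01% of all genes were), and none was 1.5-fold lower, with a median of 0.23 (0.16 after centring by length and GC). Klf4 had 337 and 644 reads (ratio 2.16, 1.89 to 2.47) and Atf3 169 and 303. Of the AP-1 genes, Fosl1 had 1695 and 2263 reads, Junb 4378 and 5566, Jun 6567 and 7590, Fos 176 and 205 and Fosl2 9645 and 8564. Egr1 had 6566 and 8964. Nr4a1 (2703 and 2157) and Klf2 (176 and 114) lay on the lower side. The cardiac pair had a median of -0.50 for this list, and the tail tip pair -0.11.

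The 2 highest log2 ratios among genes with at least 200 reads belonged to genes known from epithelia. Itga3 (ENSMUSG00000001507), the integrin chain that binds laminin-332, had 101 reads in the control against 741 in the library labelled Ad-Cre (CPM ratio 8.28, 6.72 to 10.3). Wnt7b, a Wnt ligand of epithelia, had 91 and 437 (5.42, 4.32 to 6.87), and the keratin gene Krt80 134 and 333 (2.80, 2.29 to 3.45). Other epithelial genes stood at lower depth. Krt7 had 1 and 82 reads (92.5, 16.2 to 3699), Krt8 5 and 52 (11.7, 4.72 to 37.7) and Krt18, the partner of Krt8 in simple epithelial filaments and its direct neighbour in the genome, 1 and 22. Lamb3, a chain of laminin-332, had 2 and 47 reads (26.5, 6.95 to 225), and Wnt7a 1 and 32. In bulk RNA a few cells of another kind and a low level in many cells cannot be told apart.

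Of 10 measured epithelial and keratinocyte markers, all 10 had a log2 ratio above 0, 8 were 1.5-fold and 6 were 2-fold higher, and the median was 1.46 (1.28 after centring), against 5.01% and 1.52% of all genes. A member with few control reads entered the count only through the other library, so this count is a description. The summed level of the 31 listed markers went from 77.1 to 113 CPM. The defining genes Epcam (3 and 0 reads) and Cdh1 (1 and 5) stayed near 0, and Krt5, Krt6a, Krt13, Krt14, Krt15, Dsp, Perp and Cldn3 had no read in either lung library. Mesothelium also makes Krt7, Krt8, Krt18 and Krt19. Of the mesothelial markers, Msln had 4462 and 4948 reads, Krt19 49 and 67, and Upk3b, Lrrn4, Calb2, Gpm6a and Nkain4 had none, with a median of 0.32 over 5 measured genes. Their part in the keratin values was not tested. Krt7, Krt8, Krt18, Lamb3 and Wnt7a were higher with Ad-Cre in the cardiac pair as well, where Krt7 had 8 and 768 reads and Wnt7b 7 and 203. In tail tip fibroblasts Krt7 had 5 and 4 reads and Wnt7b 1 and 4.

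Integrins and laminins differed chain by chain. Of 21 measured integrin genes 7 were 1.5-fold higher, 5 of them 2-fold (5.01% and 1.52% of all genes were), and none was 1.5-fold lower. Of the 7, Itga3 and Itga7 had at least 200 reads, and the other 5 lay at a depth where 13.3% of all genes were 1.5-fold higher. Itga7, another laminin receptor chain, had 469 and 956 reads (ratio 2.30, 2.06 to 2.57). The others were read less and were chosen for mention after their values were seen: Itgb4, the hemidesmosome chain (27 and 68), Itga11, a collagen receptor chain (16 and 43), and Itgb2 of leukocytes (28 and 54). The chains with at least 1000 reads lay on both sides of 0, and none of them was 1.5-fold higher. Itgb1, the common partner, had 72294 and 64100 reads (log2 ratio 0.00), Itga5 12946 and 12867 (0.17) and Itga6 1842 and 1997 (0.29). Itgav had 9673 and 6932 (-0.31), Itgb5 2185 and 1724 (-0.17) and Itgb3 1462 and 928 (-0.48). The median over all 21 integrin genes was 0.17. Of 17 basement membrane genes 4 were 1.5-fold higher, among them Lama5 (165 and 282) and the matrix gene Tinagl1, and Npnt alone was 1.5-fold lower. Nid1 (28001 and 24633), Lamb1 (11659 and 10221) and Lamc1 (7199 and 7350) were near 0. Of 29 adhesion genes 4 were 1.5-fold higher and 4 were 1.5-fold lower (5.01% and 6.23% of all genes were), with a median of -0.12. The higher ones included Cadm4 (326 and 588) and Pcdh1 (311 and 559) and the lower ones Cdh6 (271 and 159) and Cldn1 (88 and 42), while the gap junction gene Gja1 had 5561 and 3510 reads. At 200 reads or more the adhesion list held 22 genes, of which 2 were 1.5-fold higher and 1 was 1.5-fold lower.

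**Figure D2:**
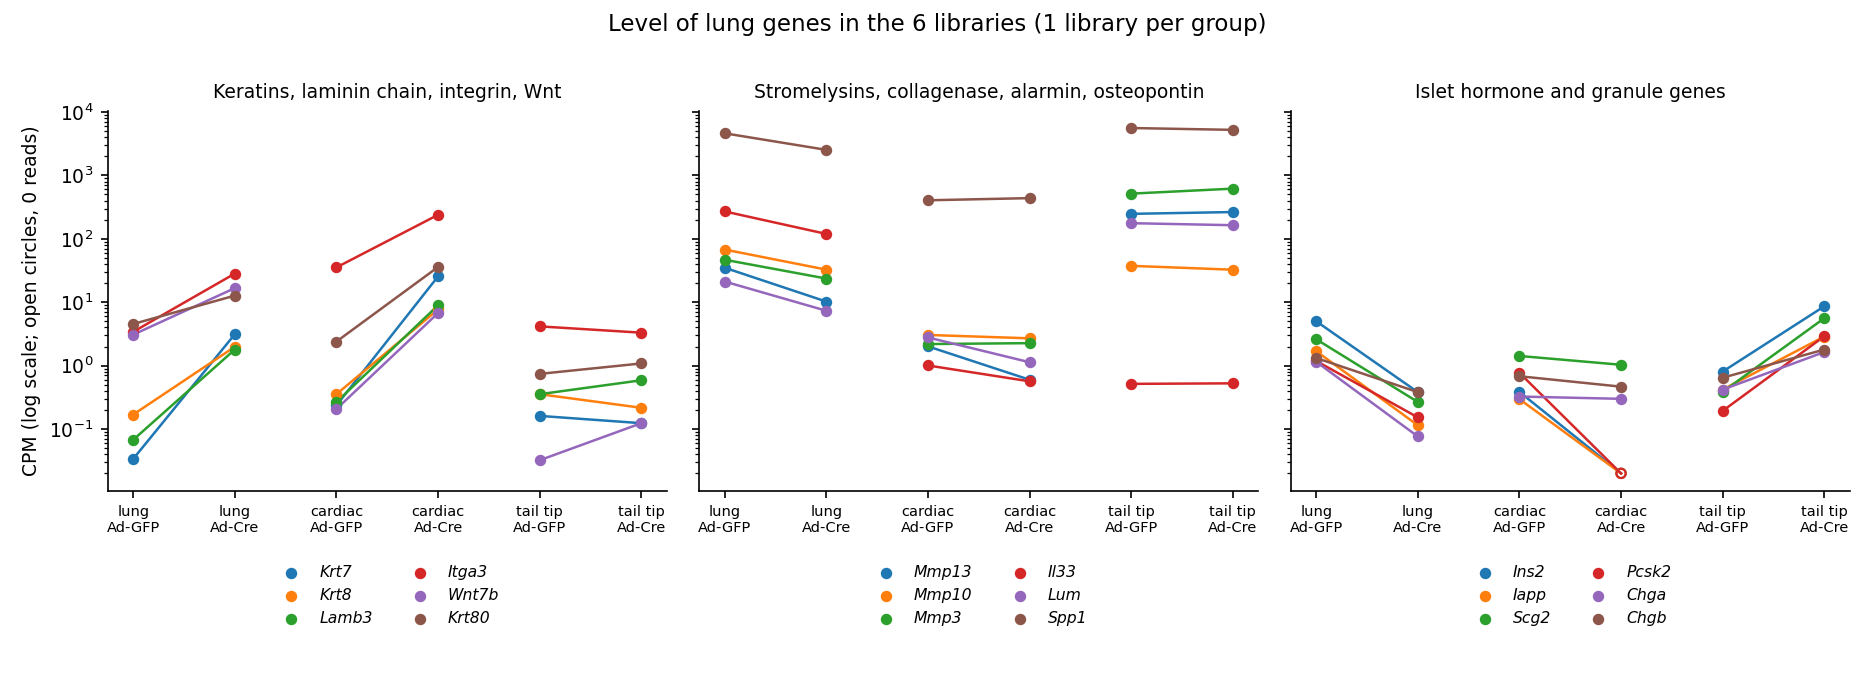
CPM (log scale) in the 6 libraries, 1 library per group, with lines joining the Ad-GFP library and the library labelled Ad-Cre of an origin and open circles at the axis foot for 0 reads. The genes on the left are higher in the lung and cardiac libraries labelled Ad-Cre and flat or low in tail tip, those in the middle are lower in lung and differ by gene elsewhere, and the islet genes on the right are lower in lung (Ins2 148 and 10 reads) and higher in tail tip (25 and 279).

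Of 21 Wnt pathway genes 4 were 2-fold higher (1.52% of all genes were) and 1 was 1.5-fold lower (6.23% were), and the median was 0.02. The higher ones were the ligands Wnt7a, Wnt7b and Wnt11 (7 and 31 reads) and the target gene Axin2 (25 and 51), and the lower one was the antagonist Dkk2 (351 and 182). Of the 4 higher genes only Wnt7b had at least 200 reads, and 4.32% of all genes under 200 reads were 2-fold higher. Wnt7a and Wnt11 entered the count only through the library labelled Ad-Cre, so it is a description. Lef1, a target gene like Axin2, had 346 and 354 reads. Sema6a, a membrane-bound semaphorin, had 71 and 201 reads (ratio 3.20, 2.43 to 4.25), against a median of 0.09 for 46 guidance genes. Of 12 retinoic acid genes 3 were 1.5-fold higher (5.01% of all genes were) and 1 was 1.5-fold lower, with a median of 0.16. The higher ones were the synthesis enzyme gene Aldh1a3 (14 and 34), the degrading enzyme gene Cyp26b1 (28 and 68) and Tgm2 (456 and 730), and Crabp1, which binds retinoic acid in the cytosol, had 8858 and 6939. The 12 Notch and Hedgehog genes and the 17 NF-kB feedback genes both had a median of 0.18, each with 1 member 1.5-fold higher and none lower. The TGF-beta response list had a median of 0.13 over 23 genes, with Pmepa1 at 4196 and 5399 reads, and the BMP list -0.02 over 18 genes. YAP and TEAD targets had a median of 0.24 over 22 genes, which became 0.07 after centring by length and GC. Contractile genes had a median of 0.18 over 27 genes, and Acta2, the myofibroblast actin, had 18415 and 15705 reads.

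Of 6 measured GATA factors and FOG cofactors 3 were 1.5-fold higher (5.01% of all genes were) and none was 1.5-fold lower (6.23% were). All 3 had at least 200 reads, a depth where 1.15% of genes were 1.5-fold higher. Gata2 had 611 and 827 reads (ratio 1.53, 1.37 to 1.70), Gata6 299 and 400 (1.51, 1.30 to 1.76) and the FOG gene Zfpm1 556 and 800 (1.62, 1.46 to 1.81). Gata3 had 70 and 64, and Zfpm2, the FOG gene best read here, 2060 and 1853. Gata1 had 0 and 2 reads and Gata5 none. The median over the 6 measured genes was 0.48, and 0.28 after centring. The transcripts of Gata2 and Zfpm1 are rich in GC (58.2% and 66.8%).

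Of 26 listed macrophage and leukocyte markers 6 were measured, 3 were 1.5-fold lower (6.23% of all genes were) and none was 1.5-fold higher, with a median of -0.77 (-0.63 after centring). Cd53, a leukocyte tetraspanin, had 720 and 284 reads (2.25-fold higher in the control, 1.96 to 2.59), Mrc1, the mannose receptor, 310 and 139, Cd14 349 and 209 and the lysozyme gene Lyz2 39 and 11, while Csf1r had 105 and 117. Itgb2, an integrin chain of leukocytes outside the list, was higher (28 and 54). The summed level of the 26 went from 55.2 to 32.4 CPM, against 1169 and 758 CPM in the cardiac and 6460.3 and 5447 CPM in the tail tip libraries. The pan-leukocyte gene Ptprc had 6 and 9 reads, and C1qa, C1qb and Nkg7 had none.

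Hormone and granule genes of pancreatic islets had the lowest median of the lists with at least 5 measured genes. Ins2, an insulin gene, had 148 and 10 reads (13.1-fold higher in the control, 6.93 to 27.9), Iapp, the amylin gene, 50 and 3, Scg2, a granule protein, 77 and 7, and Chga, chromogranin A, 34 and 2. Of 10 measured islet and neuroendocrine genes 6 were 2-fold lower, with a median of -2.05. Of all genes 1.76% were 2-fold lower, and 5.07% of those under 200 reads. The 6 entered the count only through the control library, so this count is a description. At 200 reads or more the list held 2 genes, none past 1.5-fold. Of the prohormone processing genes, Pcsk2 had 35 and 4 reads, while Cpe (6363 and 4647, log2 ratio -0.28) and Scg5 (23 and 23, 0.16) lay closer to 0, as did the regulator Isl1 (139 and 126). Ins2, Iapp, Chga and Scg2 were the other way round in the tail tip pair, where Iapp had 13 and 93 reads and Scg2 12 and 181, a difference that was not tested. Ambp, a plasma protein gene, had 25 and 0 reads in lung (at least 7.38-fold higher in the control, against a floor of 3 reads in the other library) and 8 and 35 in tail tip. Thbs4 had 39 and 0 reads in lung (at least 11.5-fold) and 164964 and 156779 in tail tip. Of the thinly read genes, 4 were at least 1000-fold higher in another library of the series (Thbs4, Prg4, Xist and Lyz2), and all 4 were 2-fold lower. Of the 21 that were 100-fold to under 1000-fold higher in another library none was 2-fold lower and 4 were 2-fold higher, and of the 324 at 10-fold to under 100-fold 11 were 2-fold lower and 24 higher. The part of those libraries in the lung reads was not tested.

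Some genes with 200 to under 1000 reads that differed belonged to no list. Adamtsl4, a matrix protein of elastic microfibrils, had 230 and 470 reads (ratio 2.31, 1.97 to 2.71), Saa3, an acute phase protein, 127 and 250, and the opioid precursor gene Penk 111 and 208. On the lower side stood Npr3, the clearance receptor of natriuretic peptides (390 and 167), Cp, the copper oxidase ceruloplasmin (662 and 303), and Slitrk6 (211 and 94). Rgs5, a pericyte marker (317 and 148), was apart from its list, since the median of 10 smooth muscle and pericyte genes was 0.24. Among thinly read genes Mn1 had 7 and 46 reads.

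Redox and metabolic lists had medians between -0.13 and 0.00, with members on both sides. Sod3, the superoxide dismutase of the extracellular space, had 425 and 760 reads (log2 ratio 1.01), while Prdx1, a peroxiredoxin, had 14467 and 8939 (-0.52), Nqo1 877 and 526 and the cystine carrier gene Slc7a11 872 and 520. Over 30 NRF2 antioxidant genes the median was -0.09, with 1 past 1.5-fold on each side (5.01% of all genes were higher and 6.23% lower). The higher one was Sod3 and the lower one Gsta4 (98 and 51 reads), while Prdx1, Nqo1 and Slc7a11 fell short of that line. Pfkfb4, a regulator of glycolysis, had 257 and 405 reads, and was the only one of 31 glycolysis and hypoxia genes past 1.5-fold (median 0.00). Of 25 cholesterol synthesis genes 1 was 1.5-fold higher, with a median of -0.13, and Idi1 had 1053 and 650 reads. The glucocorticoid-induced kinase gene Sgk1 had 4926 and 2818 reads, in a list of 13 genes with a median of -0.15. The 29 cytosolic chaperones (median -0.06) and the 29 lysosome and autophagy genes (0.01) had none past 1.5-fold.

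Ribosomal and mitochondrial lists had medians below 0. Cytosolic ribosomal protein genes had a median of -0.14 over 80 genes (-0.06 after centring). Of these, 3 were 1.5-fold lower, such as Rps29, and 1 was higher (6.23% and 5.01% of all genes were). Nuclear subunits of the respiratory chain had a median of -0.13 over 75 genes (-0.04 after centring). Of the 13 genes of mitochondrial DNA 12 were below 0, with a median of -0.35 (-0.07 after centring), among them mt-Nd1 (125639 and 79016) and mt-Co1 (270906 and 199090). The exception was mt-Nd6, the one protein gene of the light strand, with 33769 and 60717 reads (log2 ratio 1.02). The strand setting of the counting is not given, and mt-Nd6 overlaps mt-Nd5 on the other strand. Mitochondrial genes took 4.72% and 4.40% of the reads. Growth programs were level: 40 mitosis genes had a median of 0.05 with 1 past 1.5-fold (Smc4, 17631 and 24321), and 49 DNA replication genes had 0.06 with none. The 30 p53 targets had a median of 0.05 and the 15 genes of CDK inhibitors and senescence -0.06, with none past 1.5-fold, and the 41 interferon-stimulated genes had -0.11, with 2 higher and 4 lower.

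**Figure D3:**
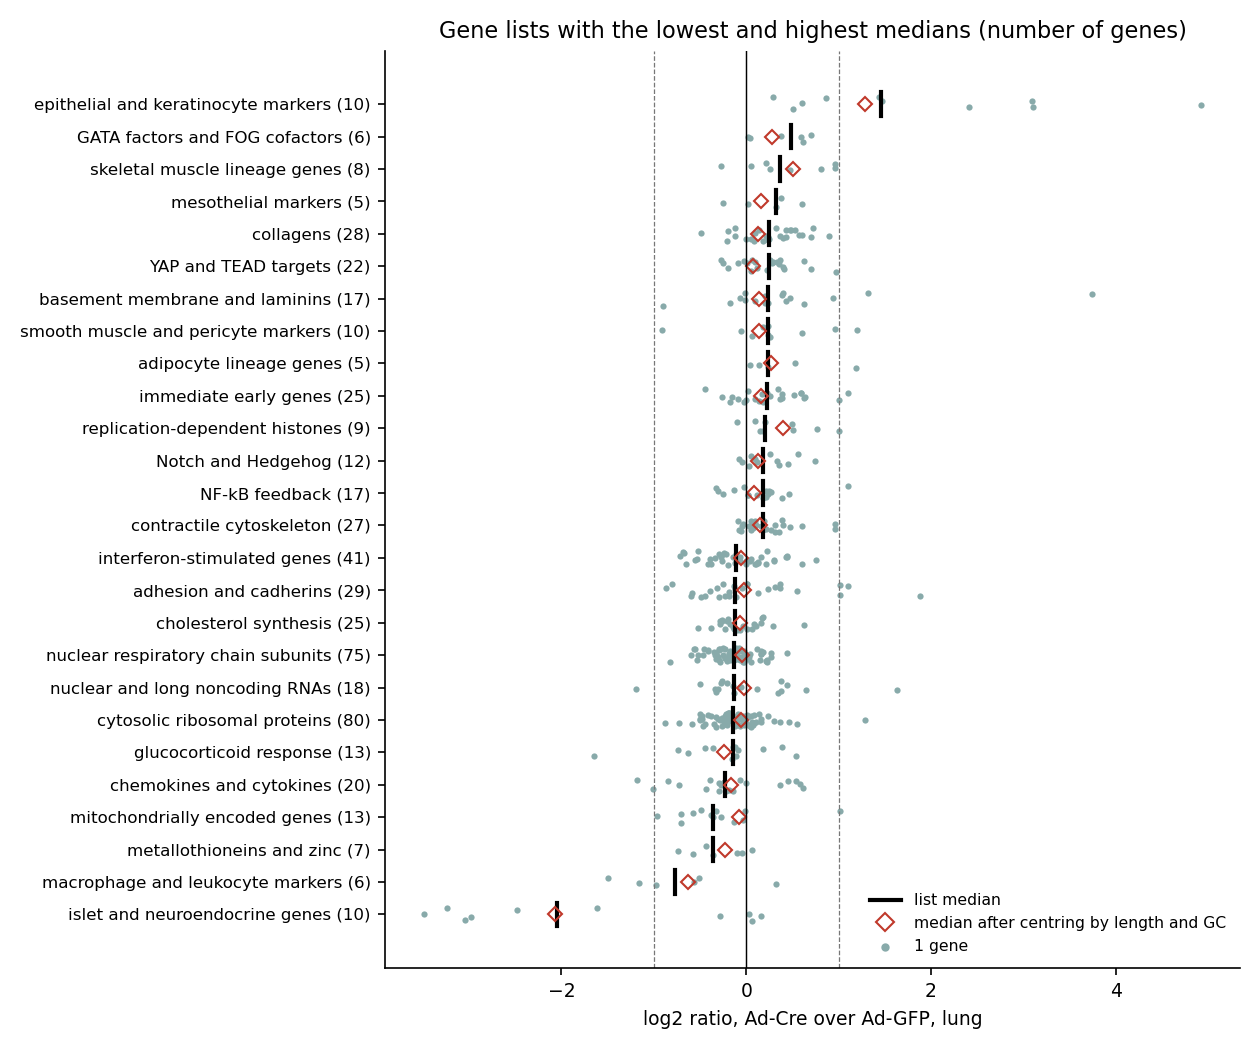
Log2 ratio of the genes (points) in the 14 lists with the highest and the 12 with the lowest medians among lists of at least 5 measured genes; black bars are medians, red diamonds medians after centring by transcript length and GC, and dashed lines 2-fold. Epithelial markers at the top (median 1.46) and islet genes at the bottom (-2.05) stand apart, and most other medians move towards 0 after centring.

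Over all 65 lists with at least 5 measured genes, 29 medians lay within 0.1 of 0, 23 above and 13 below. After centring 40 lay within 0.1. What the genes share beside function is the make-up of their transcripts. With all genes ranked by GC content and split into 5 equal classes, the median log2 ratio at 200 reads or more went from -0.16 in the class poorest in GC through -0.07, -0.02 and 0.06 to 0.16 in the richest. Across these 9425 genes, all from the same 2 libraries, Pearson's r of the ratio with GC was 0.42 and Spearman's rho 0.46, against 0.06 and 0.07 with length. The cardiac pair ran the opposite way over the same genes, from 0.28 to -0.21, and tail tip from 0.08 to -0.04. Of 67 single genes that were recomputed, 26 moved by more than their 95% counting error. Spp1 went from -0.87 to -0.59 and Col7a1 from 0.73 to 0.48, while Snrpf went from 0.84 to 1.12. Itga3 stood at 2.81 after centring, Tinagl1 at 1.16, Mmp13 at -1.63 and Il33 at -1.05. Of the 109 higher genes at this depth 108 could be centred and 80 of them stayed past 1.5-fold, and of the 168 lower genes 98 did.

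Processed pseudogenes, copies of spliced transcripts without introns, made up much of the lower set. They were 774 of the 13880 genes, had a median of -0.63, and gave 153 of the 244 genes that were 2-fold lower (62.7%) and 6 of the 211 higher ones. Their reads summed to 85425 and 52827. Since they share sequence with their parent genes, their counts are uncertain, and centring by length and GC left their median at -0.48. The 11822 protein-coding genes had a median of 0.01, with 134 higher and 63 lower. Processed pseudogenes had a median of 0.77 in the cardiac and 0.05 in the tail tip pair. What moves GC-rich genes and pseudogenes in this way was not tested. By chromosome, medians ran from -0.14 on X to 0.06 on chromosome 17 among the nuclear chromosomes other than Y, which has 2 genes, and X stood at -0.07 after centring.

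**Figure D4:**
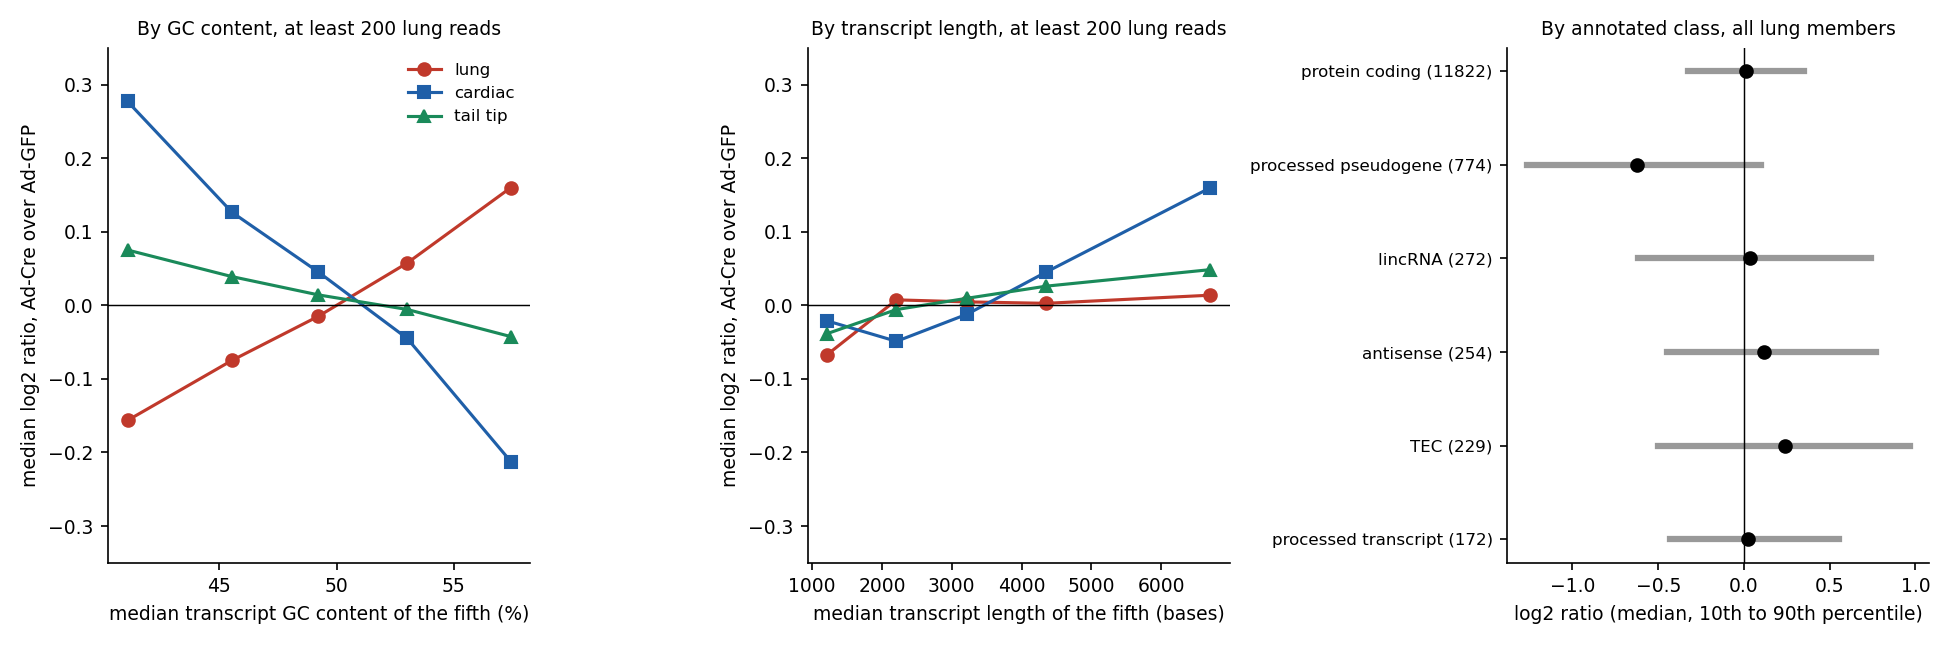
Median log2 ratio in 5 equal classes of transcript GC content (left) and length (middle) in the 3 pairs, for genes with at least 200 lung reads, and by annotated class in lung (right, dots are medians, bars the 10th to 90th percentile, numbers of genes in parentheses). The lung line rises with GC from -0.16 to 0.16 where the cardiac line falls, and processed pseudogenes are the class displaced to the left.

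Set beside the other origins, lung lay between them. At 1000 reads or more the SD of the log2 ratio was 0.22 for the lung pair, 0.48 for the cardiac pair and 0.16 for the tail tip pair. Over the 9041 genes with at least 200 reads in both pairs, 853 were 1.5-fold higher in the cardiac pair (9.43%) and 94 in lung, and 27 were in both (28.7% of the lung set, 3.17% of the cardiac). Those 27 included Tinagl1, Itga3, Wnt7b, Krt80, Lama5, Itga7, Col7a1, Pdk4 and Zfpm1, while 28 of the 94 were 1.5-fold lower in the cardiac pair. On the lower side 644 genes passed in the cardiac pair (7.12%), 93 in lung and 16 in both, among them Hgf, Il6, Dcn, Serpinb2, Has2 and Mrc1, and 32 of the 93 were higher in the cardiac pair. In tail tip fibroblasts 6 of 8948 genes were 1.5-fold higher (0.0671%) and 55 lower (0.615%), and 1 (Saa3) and 2 of these were shared with lung. The genes that led in lung were near their controls there: Mmp13 had 7678 and 8547 reads, Mmp3 15993 and 19988, Spp1 173292 and 168933 and Itga3 129 and 107. No difference between pairs was tested.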

How the data were processed

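The authors deposited whole-number read counts per Ensembl gene, not normalised, in 1 table of 6 libraries. Columns were matched to libraries by the column names the labels quote, although the labels give the matrix a title on another subject. The submitters' processing notes name mm39 and STAR 2.0.7 without a role. The counting tool, annotation release, strand setting and filters were not given in the sources used here.

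Lung ratios are CPM (library totals), with a prior count of 2 for log2 values, in Python 3.11.15. TMM (edgeR 4.0.16) and DESeq2 1.42.0 size factors in R 4.3.3, other prior counts and other read minimums were alternatives. No model test was run. The calculation was tested on simulated data. Symbols, classes and transcripts came from GENCODE M21 (GRCm38, not the build of the counts), so no gene coordinates of the counts are given, and 13680 members matched. Promoters came from RefSeq (GRCm38.p6).

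Members and lists were chosen with earlier results of these data known. Genes named are the 15, 10 and 6 largest log2 ratios per direction at 1000 reads or more, 200 to under 1000 and 20 to under 200 reads, up to 5 genes with at least 100 reads per list, defining markers and the GATA family. Other list members were named after their values were seen. Not every gene taken is printed, and some are not reported here.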

Additional observations from a re-analysis of the deposited data

Results flagged for a closer look

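Genes taken by the rule for named genes and reported here that were at least 2-fold one way in lung and at least 2-fold the other way in another pair are given here. The difference between pairs was not tested, since each group is 1 library. Pabpn1 had a log2 ratio of 1.30 in lung and -1.99 in the cardiac pair (1582 and 353 reads, control first). The mitochondrial tRNA gene mt-Tc was at -1.11 in lung and 1.69 in the cardiac pair. Pabpn1 shares exon sequence with an overlapping gene, so its count is uncertain.

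The islet genes were lower in lung and higher in tail tip fibroblasts. Ins2 was at -3.49 and 3.32, Iapp at -3.24 and 2.61, Chga at -3.04 and 1.82 and Scg2 at -2.98 and 3.65. Ambp went with them, at -3.68 in lung and 1.84 in tail tip fibroblasts.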

How the results depend on the processing

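Of 211 genes 2-fold higher and 244 lower, the counts stayed within 1.5 times under TMM over the lung pair (201 and 261) or over 6 libraries (220 and 233), DESeq2 size factors (188 and 282), prior counts of 0.5 (246 and 283) and 5 (170 and 186), and centring by length and GC (209 and 186, chosen after seeing the data). They moved with the read minimum: 555 and 466 at 10 reads, 64 and 101 at 50 and 2999 and 1173 at 1. They also moved with the call: 695 and 865 at 1.5-fold, and 41 and 19 where the whole interval had to pass. Protein-coding genes alone gave 134 and 63, and genes with at least 200 reads 20 and 20, both chosen after seeing the data. Of 36 list medians farther than 0.1 from 0, 34 kept their sign after centring (elastic fibre genes went from 0.14 to -0.0049 and ERK feedback genes from 0.13 to -0.03), and all 36 kept it under the other settings that were run on lists. Of 67 named genes 26 moved by more than their 95% counting error under centring, the most of any setting, and none past 2-fold changed sign. No paired analysis was possible because each group holds 1 library, and for the same reason no replicate could be left out. Counting error limits genes under 200 reads, and no spread between cultures is known for any gene.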

Other observations

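The lung libraries held almost no reads of sex-linked genes. Xist had 31 and 11 reads, against 22540 and 26371 in the cardiac and 33128 and 35270 in the tail tip libraries. The Y-linked gene Ddx3y had 1 and 1 in lung and 836 and 562 in the cardiac pair, and Eif2s3y, Kdm5d and Uty had no read in either lung library.

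Hox genes of the lung cells differed little. Of 17 measured genes of groups 1 to 8, 15 had a log2 ratio above 0, with a median of 0.17 and none past 1.5-fold. Metallothionein and zinc transport genes were on the lower side, with a median of -0.36 over 7 genes. Mt1, a metallothionein, had 2227 and 1532 reads and the zinc exporter Slc30a1 335 and 198. The 7 small nucleolar RNA genes read here had a median of -0.77, with 5 of them 1.5-fold lower and 1 higher (6.23% and 5.01% of all genes were). Polyadenylated libraries are not made to read such short RNAs.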
